A study of Mus musculus with 9 samples.

Results

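The heat shock and endoplasmic reticulum (ER) stress genes were followed across 3 macrophage populations of the mouse lung. The set held 45 listed genes of 24346 gene symbols in the deposited tables, matched by symbol. Of these, 16 were heat shock genes, from Hspa1a through Hsf1, and 29 were ER stress genes, from Hspa5 through Sel1l. A gene was tested when its expression reached 1 FPKM (mapped fragments scaled to transcript length and sequencing depth) in at least 3 of the 9 samples. All 16 heat shock genes and 28 of the 29 ER stress genes passed this filter, among 10686 genes tested in all. The ER stress gene that did not pass was Chac1, a glutathione-degrading enzyme induced by the stress factor ATF4, which was listed at 0 to 0.262 FPKM.

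Heat shock proteins are chaperones that hold and refold proteins in the cytosol and mitochondria, and the transcription factor HSF1 drives many of their genes when unfolded protein accumulates. In the ER, the sensors IRE1 (gene Ern1), PERK (gene Eif2ak3) and ATF6 start the unfolded protein response. IRE1 splices Xbp1 mRNA, PERK slows translation and favours ATF4 and its target CHOP (gene Ddit3), and cleaved ATF6 enters the nucleus, so that ER chaperones, disulfide isomerases and ER-associated degradation genes are induced. Macrophages engulf and secrete a great deal of protein, and the same genes are also part of their basal secretory equipment.

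The samples came from lungs of female C57BL/6 mice at postnatal week 10, with 3 samples in each of 3 groups. Ctrl-AM were alveolar macrophages (AMs), the resident macrophages of the air spaces, from mice given vehicle. Tumor-AM were AMs from mice whose left lung had been injected with Lewis lung carcinoma (LLC) cells carrying tdTomato, a mouse lung cancer line. Tumor-macrophage were tumor-associated macrophages (TAMs) from such tumor-bearing mice. All populations were sorted from enzyme-digested lung as CD45+ autofluorescent cells, AMs by Siglec-F and TAMs as Siglec-F− F4/80+ CD11b+ cells. Samples were separate mice by the study's description of each population, and p-values measure the spread between these samples only. Control and tumor-bearing mice were bred separately, so breeding and tumor cannot be told apart. Tumor-macrophage and Ctrl-AM differed in both cell type and tumor, and these cannot be told apart in that comparison either. In bulk samples, fewer cells of a type and less RNA per cell cannot be distinguished.

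The estimated depth was 10300000 to 13000000 reads per sample, and depth relative to Ctrl-AM 1 ran from 0.906 to 1.14. The sum of FPKM over all genes ran from 635560 to 660730 in Ctrl-AM, from 694977 to 731731 in Tumor-AM and from 743858 to 785745 in Tumor-macrophage, with no overlap between groups, so values scaled to the same sum (TPM) give lower fold changes in each comparison. Over all genes, the median log2 change under TPM was −0.109 in Tumor-AM against Ctrl-AM, −0.0846 in Tumor-macrophage against Tumor-AM and −0.222 in Tumor-macrophage against Ctrl-AM, compared with 0.0142, 0.00117 and −0.00824 on the deposited FPKM. The AM markers Siglecf, Pparg, Marco, Mrc1 and Siglec1 summed to 767.4 to 833.6 FPKM for Ctrl-AM, 551 to 834 for Tumor-AM and 96.24 to 118.7 for Tumor-macrophage. The TAM markers Ccr2, Cx3cr1, Tgfb3 and Ly6c2 summed to 6.58 to 8.35, 11.7 to 14.3 and 149.2 to 193.5 FPKM in the same order, so the order of the groups followed their labels. Within Tumor-AM, Tumor-AM 2 held 834 FPKM of AM markers against 551 and 564.8 in the other samples, and Marco measured 60.2, 329 and 95.3 FPKM. The airway gene Scgb1a1 measured 168.5 FPKM in Ctrl-AM 1 and at most 5.22 in the other Ctrl-AM samples. In Tumor-AM 1 it measured 53.2 FPKM, against 3.99 and 4.49 in the other Tumor-AM samples.

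In AMs, few members of the set changed with tumor. Tumor-AM differed from Ctrl-AM in 6 of 44 tested members at a limma adjusted p under 0.05, where 10.3% of all genes tested were called, 7.11% higher and 3.18% lower. Ppp1r15a, Bag3, Hspa4 and Dnajb11 rose, and Xbp1 and Hsp90aa1 fell. By class, 2 heat shock genes rose and 1 fell of 16, and 2 ER stress genes rose and 1 fell of 28. Under TPM the heat shock split became 0 higher and 3 lower, and the ER stress split 1 and 1. The median log2 change was −0.175 over the heat shock genes and 0.116 over the ER stress genes, beside 0.0142 over all genes tested. The 3 samples of Tumor-AM did not overlap those of Ctrl-AM in 19 of the 44 members, compared with 32.3% of all genes.

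The TAMs stood further apart. Tumor-macrophage differed from Tumor-AM in 20 of 44 members, where 48.6% of all genes were called, 24.2% higher and 24.4% lower. Of the 16 heat shock genes, 7 rose and 0 fell, with a median log2 change of 0.347. Of the 28 ER stress genes, 7 rose and 6 fell, with a median of −0.0602. The groups did not overlap in 20 of the 44 members, compared with 55.3% of all genes. Under TPM the heat shock split was 5 and 0, and the ER stress split was 6 and 9. Against Ctrl-AM, 23 of 44 members were called in Tumor-macrophage, where 54.8% of all genes were called, 27.7% higher and 27.1% lower. Here 7 heat shock genes rose and 0 fell, and 11 ER stress genes rose and 5 fell, and the groups did not overlap in 28 members, compared with 62.3% of all genes. Under TPM these splits became 4 and 3, and 6 and 9. The total of calls in the set thus lay near the background in every comparison. Tumor-AM against Ctrl-AM and Tumor-macrophage against Ctrl-AM share the Ctrl-AM samples, both Tumor-macrophage comparisons share the Tumor-macrophage samples, and the Tumor-AM samples enter 2 of the 3 comparisons, so their calls are given side by side and not as independent results.

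**Figure D1:**
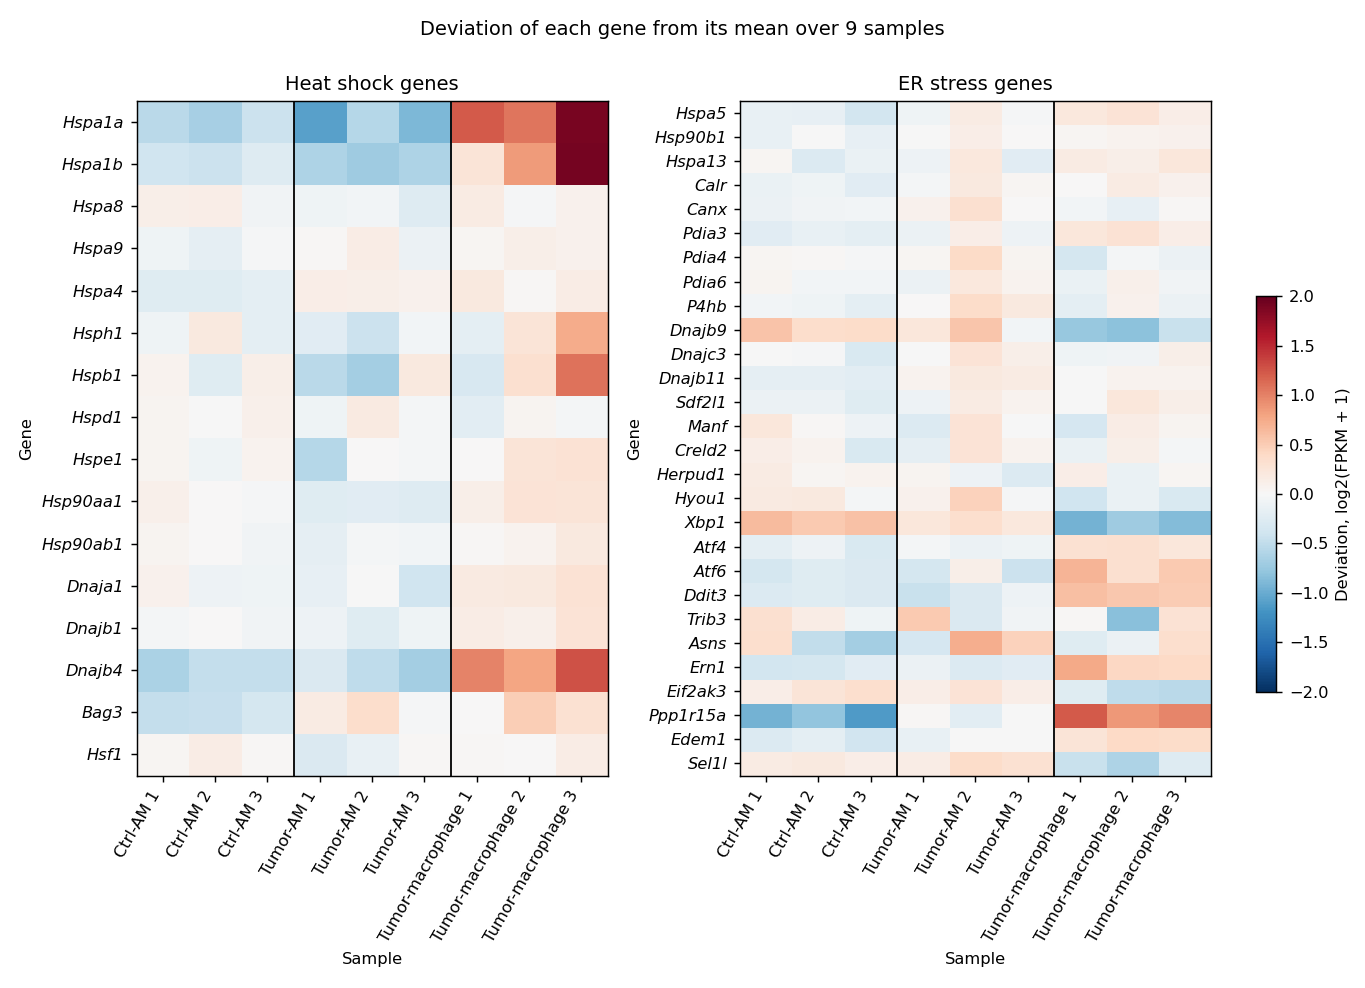
Each cell shows how far log2(FPKM + 1) of a gene in a sample lay from that gene's mean over the 9 samples, with 16 heat shock genes on the left and 28 ER stress genes on the right. Columns are samples in 3 groups separated by black lines, red is above and blue below the mean. Hspa1a, Hspa1b, Dnajb4 and Ppp1r15a are reddest in Tumor-macrophage, and Xbp1 and Dnajb9 are bluest there.

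Hspa1a and Hspa1b encode the stress-inducible Hsp70 chaperone and had the largest increases of the set in Tumor-macrophage against Tumor-AM. Hspa1a was expressed at 3.11, 2.78 and 3.42 FPKM across the Ctrl-AM samples, 1.80, 3.02 and 2.198 across Tumor-AM and 13.0, 11.5 and 21.2 across Tumor-macrophage. Hspa1b was expressed at 3.38, 3.26 and 3.79 FPKM, at 2.76, 2.51 and 2.75, and at 5.87, 9.38 and 20.5 in the same order. For both genes every Tumor-macrophage sample lay above every AM sample. In Hspa1a the AM groups overlapped, and in Hspa1b all 3 Tumor-AM values lay below the Ctrl-AM values. Against Tumor-AM, the log2 change in Tumor-macrophage was 2.25 ± 0.21 (SE) for Hspa1a (limma, adjusted p = 7.35e-06) and 1.65 ± 0.318 for Hspa1b (adjusted p = 0.00141), with group means 6.51-fold and 4.46-fold higher. Against Ctrl-AM the log2 changes were 1.94 and 1.37 (limma, adjusted p = 1.93e-05 and 0.00398). Tumor-macrophage 3 was the highest sample for both genes, and without it the changes against Tumor-AM were 2.00 and 1.20 (limma, adjusted p = 1.15e-05 and 0.000425). In Tumor-AM against Ctrl-AM the log2 changes were −0.31 ± 0.21 and −0.28 ± 0.318, and neither passed the test (limma, adjusted p = 0.412 and 0.646).

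These are neighbouring copies on chromosome 17, and their values cannot be fully separated. In GENCODE (GRCm38, the assembly also called mm10), Hspa1a (ENSMUSG00000091971) lies at chr17:34969190-34972156 and Hspa1b (ENSMUSG00000090877) at chr17:34956436-34959238, both on the minus strand. Of all stretches of 75 bases in the transcript, the length of a read, 61.7% in Hspa1a and 55.8% in Hspa1b also occurred in another gene. The 250 bases before each start, from RefSeq on GRCm38.p6, are shown because the copies share nearly all of that sequence as well, 247 of 250 bases. Hspa1a is read from chr17:34972157-34972406 and Hspa1b from chr17:34959239-34959488, on the minus strand. Capitals mark the letters of GAANNTTC, the first part of a heat shock element.
Hspa1a: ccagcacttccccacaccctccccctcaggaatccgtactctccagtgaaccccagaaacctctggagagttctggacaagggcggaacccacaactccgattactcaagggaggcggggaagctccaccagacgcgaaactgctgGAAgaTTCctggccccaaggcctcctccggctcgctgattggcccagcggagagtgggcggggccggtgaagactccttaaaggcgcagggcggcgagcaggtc
Hspa1b: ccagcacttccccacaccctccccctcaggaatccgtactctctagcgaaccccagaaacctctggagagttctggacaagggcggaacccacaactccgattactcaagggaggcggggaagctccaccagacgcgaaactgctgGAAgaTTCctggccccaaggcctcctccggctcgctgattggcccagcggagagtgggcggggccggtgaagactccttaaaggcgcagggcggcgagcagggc
Counted from 1 at the 5′ end of the stretch, with the Hspa1a base first, the differences were C44T, T47C and T249G.

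Hspa8, of the same family, encodes the constitutive Hsc70 and was the most abundant gene of the set. It was expressed at 1594, 1617 and 1399 FPKM in the 3 Ctrl-AM samples, 1385, 1413 and 1224 in those of Tumor-AM and 1648, 1444 and 1553 in those of Tumor-macrophage. The Tumor-macrophage samples lay above Tumor-AM and overlapped Ctrl-AM. Its log2 change was −0.20 ± 0.0894 in Tumor-AM against Ctrl-AM (limma, adjusted p = 0.208) and 0.21 ± 0.0894 in Tumor-macrophage against Tumor-AM (adjusted p = 0.0787), and the latter turned to −0.0622 after quantile normalization. Under TPM the first passed, at −0.335 (adjusted p = 0.0296), and without Tumor-macrophage 2 the second did, at 0.257 (adjusted p = 0.0492). Of its 75-base stretches 68.6% occurred elsewhere, mostly in Gm15459, so its level is uncertain. Of the 45 members, 31 shared no 75-base stretch with another gene, 8 shared over 20% of them, and the rest at most 9.71%.

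Among the co-chaperones, Dnajb4, a J-domain protein that hands clients to Hsp70, followed the inducible Hsp70 genes. It measured 3.78, 4.32 and 4.30 FPKM across the Ctrl-AM samples, 5.01, 4.19 and 3.62 across Tumor-AM and 13.7, 11.7 and 16.9 across Tumor-macrophage. The AM groups overlapped and the Tumor-macrophage samples lay above both. This gave a log2 change of 1.51 ± 0.146 against Tumor-AM (limma, adjusted p = 9.39e-06) and 1.54 ± 0.146 against Ctrl-AM (adjusted p = 6.51e-06), and no 75-base stretch of Dnajb4 occurred in another gene. Dnaja1 and Dnajb1, the other J-domain members, also rose in Tumor-macrophage against Tumor-AM, by log2 changes of 0.41 and 0.31 (limma, adjusted p = 0.00651 and 0.00855). Dnajb1 under TPM gave 0.219 there and did not pass (adjusted p = 0.0515). Against Ctrl-AM, Dnajb1 had a log2 change of 0.21 (adjusted p = 0.0495) that turned to −0.0205 under TPM and was lost when any sample other than Tumor-AM 2 or Tumor-macrophage 2 was left out. Of the 75-base stretches of Dnaja1, 26.2% occurred in other genes.

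Bag3, a nucleotide exchange factor that releases clients from Hsp70 and directs them to autophagy, was the heat shock gene that differed most between the AM groups. It measured 12.1, 12.2 and 13.3 FPKM in the 3 Ctrl-AM samples, 19.5, 22.4 and 16.9 in those of Tumor-AM and 17.2, 24.7 and 21.5 in those of Tumor-macrophage. All values of both tumor groups lay above Ctrl-AM, and the tumor groups overlapped each other. The log2 change in Tumor-AM was 0.60 ± 0.137 (limma, adjusted p = 0.0218), and that in Tumor-macrophage against Ctrl-AM was 0.70 ± 0.137 (adjusted p = 0.00136). The Tumor-AM call was lost without any of the Ctrl-AM samples, without Tumor-AM 1 or without Tumor-AM 2, with adjusted p from 0.0546 to 0.0803, and the change stayed between 0.501 and 0.637 in those fits. Under TPM it was 0.476 and did not pass (adjusted p = 0.0619), and without the filter on low values it did not pass either (adjusted p = 0.0534).

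Hspa4, an Hsp110 protein that serves Hsp70 as exchange factor, had the same order of groups. It measured 30.4, 30.2 and 31.3 FPKM across the Ctrl-AM samples, 39.5, 39.2 and 38.2 across Tumor-AM and 41.5, 36.6 and 40.1 across Tumor-macrophage. The log2 change was 0.34 ± 0.0715 in Tumor-AM (limma, adjusted p = 0.0156) and 0.35 ± 0.0715 in Tumor-macrophage, both against Ctrl-AM (adjusted p = 0.0018). The Tumor-AM call was lost without each of the Ctrl-AM samples and without Tumor-AM 1, with adjusted p from 0.05 to 0.0632, and under TPM, with a change of 0.204 (adjusted p = 0.108). That in Tumor-macrophage was 0.121 under TPM (adjusted p = 0.188). Its relative Hsph1 and the small heat shock protein Hspb1 did not pass in any comparison. Hsph1 measured 8.44 to 11.3 FPKM in Tumor-AM, beside 10.2, 14.2 and 20.4 in Tumor-macrophage. Hspb1 was the lowest heat shock gene, at 0.746, 0.574 and 1.89 FPKM in Tumor-AM, beside 1.03, 2.14 and 4.38 for Tumor-macrophage. In both genes Tumor-macrophage 3 was highest and Tumor-macrophage 1 overlapped the AM samples. Without Tumor-macrophage 1 both passed against Tumor-AM, with log2 changes of 0.74 and 1.04 (limma, adjusted p = 0.00826 and 0.0182), beside 0.51 and 0.70 with all samples (adjusted p = 0.0692 and 0.104). Hspb1 also passed without Tumor-AM 3, at 0.972 (adjusted p = 0.041).

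The Hsp90 genes encode the chaperone that matures kinases and steroid receptors. The inducible Hsp90aa1 measured 94.8, 88.5 and 86.2 FPKM in the 3 Ctrl-AM samples, 74.1, 75.4 and 73.5 in those of Tumor-AM and 95.5, 107 and 105 in those of Tumor-macrophage. The groups did not overlap, with Tumor-AM lowest and Tumor-macrophage highest. Its log2 change was −0.27 ± 0.0693 in Tumor-AM against Ctrl-AM (limma, adjusted p = 0.0357) and 0.46 ± 0.0693 in Tumor-macrophage against Tumor-AM (adjusted p = 0.000274). The first call was lost when any of the 6 AM samples was left out, with adjusted p from 0.0676 to 0.145, and with a constant prior variance (adjusted p = 0.081). Against Ctrl-AM the change in Tumor-macrophage was 0.19 (limma, adjusted p = 0.0403) and turned to −0.0458 under TPM. It was lost when any sample other than Ctrl-AM 1, Tumor-AM 2 or Tumor-macrophage 1 was left out. The constitutive Hsp90ab1 was more abundant, at 424 to 554 FPKM over the 9 samples, and did not pass in any comparison. Of Hsp90aa1's 75-base stretches 53.1% occurred in other genes, compared with 0.736% for Hsp90ab1.

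The mitochondrial chaperones Hspa9, Hspd1 and Hspe1 fold imported proteins. Only Hspe1 passed, in Tumor-macrophage against Tumor-AM, with a log2 change of 0.38 ± 0.143 (limma, adjusted p = 0.0467). Its samples overlapped, at 56.2, 84.0 and 81.2 FPKM in Tumor-AM, beside 83.9, 100.4 and 102 for Tumor-macrophage. The call was lost without any Ctrl-AM sample, Tumor-AM 1, Tumor-macrophage 2 or Tumor-macrophage 3, and without Tumor-AM 1 the change was 0.201 (adjusted p = 0.138). Hspe1 and Hspd1 are head-to-head neighbours on chromosome 1, and the stretch chr1:55088053-55088082 before Hspe1 (RefSeq, GRCm38.p6, plus strand) is shown because it holds the full heat shock element found in the windows of both genes. Capitals mark the GAA and TTC triplets of that element and of its reverse complement, which overlap here.
Hspe1: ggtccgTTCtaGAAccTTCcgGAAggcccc
Hspd1 measured 62.9 to 82.7 FPKM and Hspa9 71.7 to 90.0 FPKM over the 9 samples.

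Hsf1, the gene of the factor that drives these genes, did not pass in any comparison on the deposited scale. It measured 16.2, 17.4 and 15.97 FPKM across the Ctrl-AM samples, 12.7, 14.1 and 15.9 across Tumor-AM and 15.98, 15.8 and 17.5 across Tumor-macrophage. The Tumor-AM values lay just below those of Ctrl-AM and overlapped those of Tumor-macrophage. This gave a log2 change of −0.20 ± 0.0979 in Tumor-AM against Ctrl-AM (limma, adjusted p = 0.231) and 0.20 ± 0.0979 in Tumor-macrophage against Tumor-AM (adjusted p = 0.123). Under TPM the first passed, at −0.342 (adjusted p = 0.0406), and without Tumor-AM 3 the second did, at 0.275 (adjusted p = 0.0491). HSF1 acts through trimers and phosphorylation, which mRNA levels do not show.

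**Figure D2:**
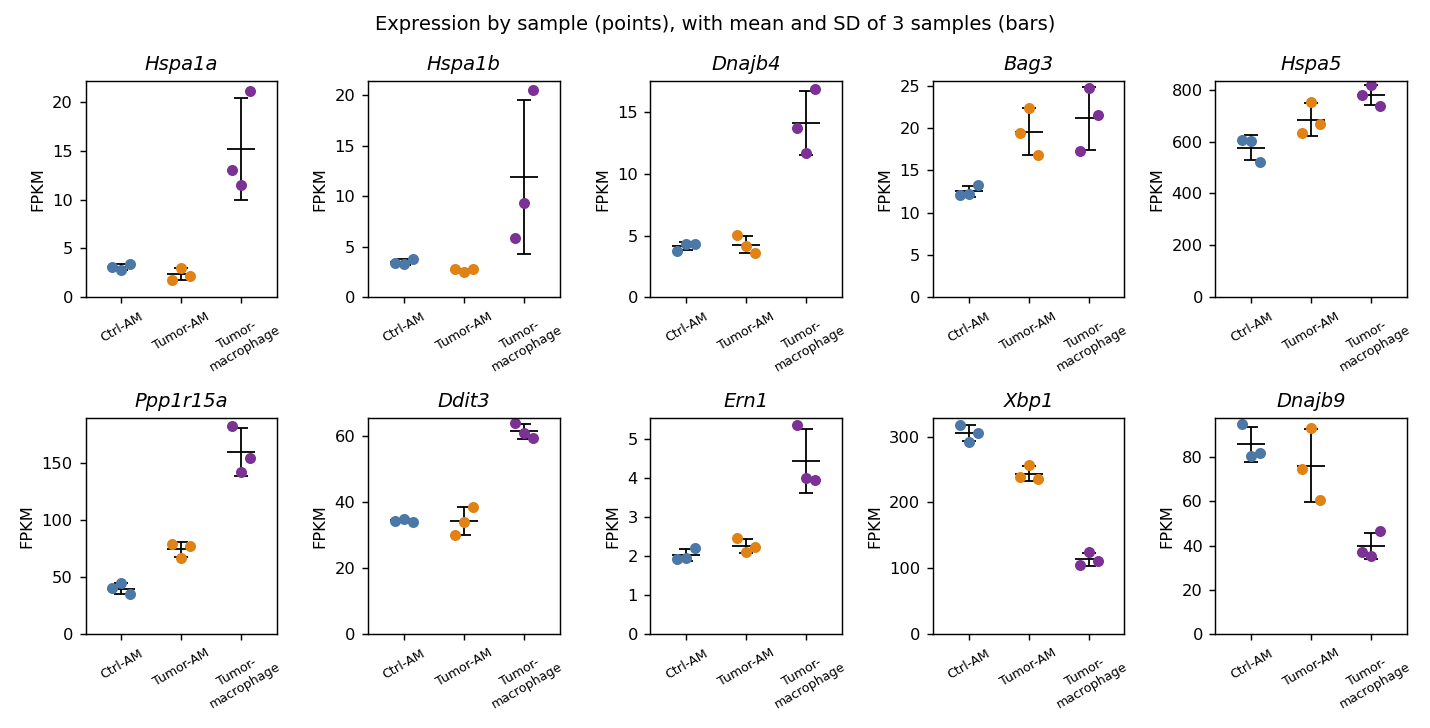
FPKM of 10 members in each sample (points) with the mean and SD of 3 samples (horizontal and vertical bars), on axes that start at 0. The Tumor-macrophage points lie above all AM points for Hspa1a, Hspa1b, Dnajb4, Ppp1r15a, Ddit3 and Ern1 and below them for Xbp1 and Dnajb9, and the Tumor-AM points lie between the other groups for Ppp1r15a and Xbp1.

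Promoter windows of 300 bases, 250 before to 50 after the start, were found in RefSeq (GRCm38.p6) for 36 of the 45 genes, 11 of the 16 heat shock and 25 of the 29 ER stress genes. Both strands were searched, and a match describes letters, not a bound factor. GAANNTTC, which is also the front of the full heat shock element, where it is followed by NNGAA, occurred in 9 of the 17 windows of the heat shock genes and in 7.86% of 32851 windows of all genes. These windows belonged to 8 of the 11 genes, Hspa1a, Hspa1b, Hsph1, Hspb1, Hspd1, Hspe1, Dnaja1 and Bag3. The full element occurred in 4 of the 17 windows, in Hsph1, Hspd1 and Hspe1, and in 0.603% of all windows. Its other part, TTCNNGAA, occurred in 5 of the 17 windows and in 8.52% of all windows. The windows of Hsph1 overlap and hold the same element, and Hspd1 and Hspe1 share theirs. These window counts therefore hold some sites more than once.

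Among the ER stress genes, Ppp1r15a rose most. It encodes GADD34, the phosphatase subunit that restores translation after stress, and is a target of ATF4. It measured 40.03, 44.6 and 34.8 FPKM in the 3 Ctrl-AM samples, 78.7, 67.0 and 76.9 in those of Tumor-AM and 182, 142 and 154 in those of Tumor-macrophage. The groups did not overlap and stood in the order Ctrl-AM, Tumor-AM, Tumor-macrophage. The log2 change was 0.88 ± 0.116 in Tumor-AM against Ctrl-AM (limma, adjusted p = 0.00151), 1.09 ± 0.116 in Tumor-macrophage against Tumor-AM (adjusted p = 2.09e-05) and 1.97 ± 0.116 in Tumor-macrophage against Ctrl-AM (adjusted p = 1.54e-07). The first of these passed in every alternative except the requirement of a 2-fold change. Ppp1r15a (ENSMUSG00000040435, chr7:45522916-45526268, minus strand) overlaps Tulp2 on the other strand, and strand use in the quantification was not stated.

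The last 60 bases before the Ppp1r15a start (chr7:45526269-45526328, minus strand, RefSeq, GRCm38.p6) are shown because it was the only ER stress gene with a window that held TGACGTCA, the cAMP response element, which is bound by factors of the CREB and ATF families. This element, in capitals, occurred in 1.79% of all windows.
Ppp1r15a: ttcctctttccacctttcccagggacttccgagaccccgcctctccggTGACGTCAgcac

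The transcription factors ATF4 and CHOP were higher in TAMs than in AMs at the mRNA level, and did not pass between the AM groups. Atf4, which is mainly controlled by translation, measured 94.0, 99.8 and 87.0 FPKM across the Ctrl-AM samples, 104, 99.3 and 101 across Tumor-AM and 133, 135 and 126 across Tumor-macrophage. Ddit3, encoding the factor CHOP, measured 34.3, 35.0 and 34.1 FPKM, 30.2, 34.0 and 38.6, and 64.0, 61.0 and 59.5 in the same order. The AM groups overlapped in both genes and the Tumor-macrophage values lay above them. Against Tumor-AM the log2 change in Tumor-macrophage was 0.37 ± 0.0695 for Atf4 (limma, adjusted p = 0.00126) and 0.83 ± 0.0891 for Ddit3 (adjusted p = 2.12e-05). In Tumor-AM against Ctrl-AM the change of Atf4 was 0.12 ± 0.0695 (limma, adjusted p = 0.337), with a 95% interval from −0.0361 to 0.273, and turned to −0.0193 under TPM. For Ddit3 the same interval ran from −0.213 to 0.183. Ddit3 overlaps Mars and Gm4189 on the other strand.

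Trib3 and Asns, other targets of ATF4 in the set, did not pass in any comparison. Trib3, a pseudokinase, measured 0.522 to 2.91 FPKM over the 9 samples, and Asns, asparagine synthetase, 1.66 to 6.03 FPKM. Within the groups, Asns spread from 1.66 to 4.36, from 2.36 to 6.03 and from 2.61 to 4.38 FPKM. The letters TGATGNAA, part of the element read by ATF4 with C/EBP partners, occurred in the windows of Trib3, Asns, Chac1 and Herpud1 and in 3.97% of all windows.

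The sensors and Xbp1 differed in direction in TAMs. Xbp1 encodes the factor made active by IRE1 splicing and measured 318, 292 and 306 FPKM in the 3 Ctrl-AM samples, 239, 257 and 235 in those of Tumor-AM and 105, 124 and 111 in those of Tumor-macrophage. The groups did not overlap and stood in the reverse of the order of Ppp1r15a. Its log2 change was −0.33 ± 0.0769 in Tumor-AM against Ctrl-AM (limma, adjusted p = 0.0247) and −1.10 ± 0.0769 in Tumor-macrophage against Tumor-AM (adjusted p = 7.67e-07). The call in Tumor-AM was lost without Ctrl-AM 1 or 3 or without Tumor-AM 1 or 3, with adjusted p from 0.0696 to 0.102 and changes from −0.325 to −0.297. It was also lost with a constant prior variance (adjusted p = 0.0589). FPKM of a gene does not separate spliced from unspliced Xbp1.

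Dnajb9, encoding the ER J-domain protein ERdj4, measured 94.8, 80.6 and 81.8 FPKM across the Ctrl-AM samples, 74.5, 93.3 and 60.6 across Tumor-AM and 37.1, 35.5 and 46.5 across Tumor-macrophage. The AM groups overlapped and the Tumor-macrophage values lay below them. This gave a log2 change of −0.91 ± 0.152 against Tumor-AM (limma, adjusted p = 0.000545) and −1.10 ± 0.152 against Ctrl-AM (adjusted p = 0.000122). Eif2ak3, the PERK sensor, fell as well, from 4.73 to 5.37 FPKM in Tumor-AM to 2.62 to 3.46 in Tumor-macrophage (log2 change −0.61 ± 0.122, limma, adjusted p = 0.00181). The other sensors rose. Ern1 went from 2.095 to 2.45 FPKM in Tumor-AM to 3.93 to 5.36 in Tumor-macrophage (log2 change 0.73 ± 0.131, limma, adjusted p = 0.000905), and Atf6 from 4.59 to 7.18 FPKM to 8.43 to 11.1 (0.73 ± 0.154, adjusted p = 0.00248). None of these sensors passed in Tumor-AM against Ctrl-AM.

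**Figure D3:**
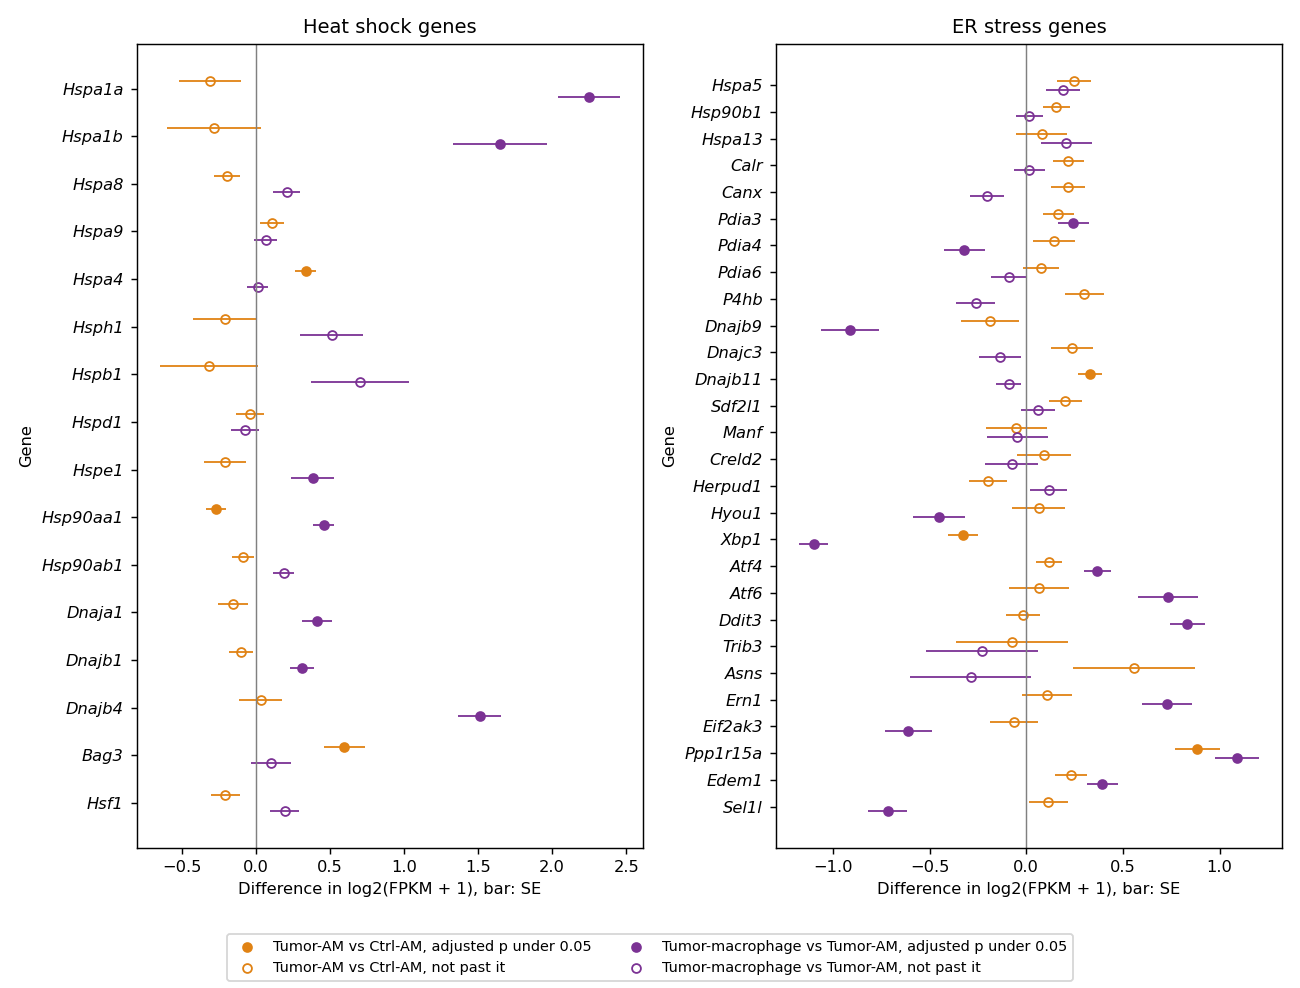
Difference in log2(FPKM + 1) for each tested member with its SE (horizontal bars), in Tumor-AM against Ctrl-AM (orange) and in Tumor-macrophage against Tumor-AM (purple), which share the Tumor-AM samples. Filled points passed a limma adjusted p of 0.05. The purple points of the heat shock genes lie at or right of 0 except Hspd1, and those of the ER stress genes spread from −1.10 for Xbp1 to 1.09 for Ppp1r15a.

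The ER chaperones Hspa5 and Hsp90b1 were among the most abundant members, with log2 changes of at most 0.435. Hspa5, encoding BiP, the central ER Hsp70, measured 605, 603 and 522 FPKM in the 3 Ctrl-AM samples, 633, 754 and 666 in those of Tumor-AM and 781, 818 and 738 in those of Tumor-macrophage. All values of both tumor groups lay above Ctrl-AM, and the tumor groups overlapped each other through Tumor-AM 2. The log2 change was 0.25 ± 0.0885 in Tumor-AM against Ctrl-AM (limma, adjusted p = 0.113), 0.19 ± 0.0885 in Tumor-macrophage against Tumor-AM (adjusted p = 0.103) and 0.43 ± 0.0885 in Tumor-macrophage against Ctrl-AM (adjusted p = 0.00178). Under TPM the last of these was 0.199 and did not pass (adjusted p = 0.0641). Without Tumor-AM 2, the change in Tumor-macrophage against Tumor-AM was 0.261 and passed (adjusted p = 0.0361).

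Dnajb11, the BiP co-chaperone ERdj3, was the ER folding gene that passed between the AM groups. It measured 74.1, 74.0 and 72.5 FPKM across the Ctrl-AM samples, 87.9, 96.2 and 94.0 across Tumor-AM and 83.7, 88.6 and 88.7 across Tumor-macrophage. Both tumor groups lay above Ctrl-AM. The log2 change in Tumor-AM was 0.33 ± 0.0636 (limma, adjusted p = 0.00965), and it was 0.193 and did not pass under TPM (adjusted p = 0.0847). Tumor-macrophage against Ctrl-AM gave 0.24 ± 0.0636 (limma, adjusted p = 0.00867), and 0.00552 under TPM.

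The remaining folding genes are described by role. Of the 4 ER chaperones, which with Hspa5 are Hsp90b1 (GRP94), Hspa13 and Hyou1 (an exchange factor of BiP), 0 passed between Tumor-AM and Ctrl-AM, their log2 changes lying between 0.064 and 0.246. Hyou1 fell in Tumor-macrophage, by 0.45 ± 0.136 on the log2 scale against Tumor-AM (limma, adjusted p = 0.0184) and by 0.39 ± 0.136 against Ctrl-AM (adjusted p = 0.0328). It measured 16.2, 21.4 and 15.0 FPKM in Tumor-AM, beside 11.3, 13.9 and 12.2 for Tumor-macrophage. Its call against Tumor-AM was lost without Tumor-AM 2 or without Tumor-macrophage 1, with adjusted p of 0.0634 and 0.0624, and that against Ctrl-AM without Ctrl-AM 1 or 2 or without Tumor-macrophage 1 or 3.

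The lectin chaperones Calr and Canx, which bind sugar-bearing clients, had log2 changes of 0.22 and 0.21 in Tumor-AM against Ctrl-AM. Their Tumor-AM samples all lay above Ctrl-AM, at 488, 577 and 518 against 460, 472 and 429 FPKM for Calr, and neither gene passed (limma, adjusted p = 0.122 and 0.162). In Tumor-macrophage against Ctrl-AM, Calr had a change of 0.23 (limma, adjusted p = 0.0307), which was −0.00379 under TPM. This call was also lost without Ctrl-AM 1 or 3 or without Tumor-macrophage 2 or 3.

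The 4 disulfide isomerases, Pdia3, Pdia4, Pdia6 and P4hb, form and rearrange disulfide bonds. In Tumor-AM against Ctrl-AM, 0 of 4 passed, beside 10.3% of all genes, and 3 did not overlap, beside 32.3%. Of these, P4hb came nearest, at 354, 451 and 402 against 337, 332 and 306 FPKM (log2 change 0.30 ± 0.102, limma, adjusted p = 0.0943). Without Tumor-AM 1 the P4hb change was 0.39 and passed (adjusted p = 0.0473). In Tumor-macrophage against Tumor-AM, Pdia3 rose by 0.24 ± 0.0801 (limma, adjusted p = 0.0286) and Pdia4 fell by 0.32 ± 0.107 on the log2 scale (adjusted p = 0.0304). Pdia3 measured 399, 474 and 403 FPKM in Tumor-AM, beside 505, 529 and 473 for Tumor-macrophage, so the groups overlapped by a small margin. Its call was lost without Tumor-AM 1 or 3 or without Tumor-macrophage 1 or 2, and under TPM (0.145, adjusted p = 0.177). Against Ctrl-AM, Pdia3 rose by 0.41 (limma, adjusted p = 0.0014), and under TPM that was 0.172 (adjusted p = 0.0963). The Pdia4 call was lost without Tumor-AM 2 (−0.209) or without Tumor-macrophage 1 (−0.227).

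Of the 4 co-chaperones in the ER, Dnajc3, an inhibitor of PERK that also assists BiP, did not pass, and Sdf2l1, which keeps BiP clients from aggregating, rose in Tumor-macrophage against Ctrl-AM by a log2 change of 0.26 ± 0.087 (limma, adjusted p = 0.025). The Sdf2l1 change was 0.0288 under TPM, and its call was lost without Ctrl-AM 3 and without Tumor-macrophage 2 or 3. Manf and Creld2, secreted or resident proteins induced by ER stress, did not pass in any comparison, at 36.3 to 55.8 and 53.8 to 80.8 FPKM over the 9 samples.

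The 3 genes of ER-associated degradation split. Edem1, which delivers misfolded glycoproteins for disposal, measured 27.1, 28.8 and 25.1 FPKM in the 3 Ctrl-AM samples, 29.9, 32.8 and 32.9 in those of Tumor-AM and 39.6, 44.1 and 42.9 in those of Tumor-macrophage. Sel1l, the scaffold of the HRD1 ubiquitin ligase, measured 36.3, 37.0 and 35.3 FPKM, 35.9, 42.0 and 39.9, and 23.4, 20.6 and 26.8 in the same order. For Edem1 the Tumor-macrophage values lay above all AM values, and for Sel1l below them. Against Tumor-AM, Edem1 rose by a log2 change of 0.39 ± 0.0818 (limma, adjusted p = 0.00232) and Sel1l fell by 0.72 ± 0.101 (adjusted p = 0.000158). Herpud1, a membrane partner of the same ligase, did not pass, at 87.6 to 119 FPKM over the 9 samples.

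The ER stress response element, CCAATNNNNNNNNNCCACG, was searched in the promoter windows because ATF6 and XBP1 act through it. It occurred in 7 of the 25 ER stress genes with a window (Hspa5, Hsp90b1, Calr, Canx, Pdia6, Dnajc3 and Creld2), in 0 of the 11 heat shock genes and in 0.119% of all windows. Each of the 25 genes had 1 window. The elements of 3 abundant chaperones are shown with 20 bases on each side (RefSeq, GRCm38.p6), for Hspa5 from chr2:34772005-34772063 on the plus strand, for Hsp90b1 from chr10:86705618-86705676 and chr10:86705513-86705571 on the minus strand and for Calr from chr8:84847055-84847113 on the minus strand. Capitals mark the fixed letters, which read CCAAT and CCACG, or CGTGG and ATTGG where the element lies on the other strand.
Hspa5: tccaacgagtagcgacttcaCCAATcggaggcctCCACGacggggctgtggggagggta
Hsp90b1, first: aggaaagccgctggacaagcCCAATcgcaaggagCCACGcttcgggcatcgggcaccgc
Hsp90b1, second: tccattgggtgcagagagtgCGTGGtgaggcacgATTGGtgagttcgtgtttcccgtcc
Calr: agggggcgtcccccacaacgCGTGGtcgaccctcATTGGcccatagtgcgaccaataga
Of the 7 genes with the element, 0 were called in Tumor-AM against Ctrl-AM (log2 changes of 0.0753 to 0.246), where 10.3% of all genes were called, and 0 in Tumor-macrophage against Tumor-AM (log2 changes of −0.201 to 0.189), where 48.6% were. In Tumor-macrophage against Ctrl-AM, 2 of the 7 rose, Hspa5 and Calr, beside 54.8% of all genes called, and under TPM neither passed and Calr turned to −0.00379. Dnajb9, Edem1, Sel1l and Ppp1r15a, which were called in Tumor-macrophage, had no such letters in their windows. The letters TGACGTGG, another element of the response, occurred in 0 of the 36 genes and in 0.676% of all windows.

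Some samples were often the highest or lowest of their group across members. Tumor-macrophage 3 was the highest of its group in 10 of 16 heat shock genes and the lowest in 0. Tumor-AM 2 was the highest of its group in 21 of 28 ER stress genes, and Ctrl-AM 3 was the lowest of its group in 19 of 28. Over all genes, Tumor-macrophage 3 and Tumor-AM 2 also had the highest FPKM sums of their groups, at 785745 and 731731. Ctrl-AM 3 had the lowest of its group, at 635560. Such ranks were not counted over all genes, so they are not read as particular to these members. Summed over the 29 ER stress genes, Tumor-AM 2 held 4576 FPKM, against 3901 and 4066 in the other Tumor-AM samples and 3585 to 3857 in Ctrl-AM. As a share of all FPKM, the ER stress genes made up 0.564% to 0.5866% in Ctrl-AM, 0.561% to 0.6254% in Tumor-AM and 0.525% to 0.5861% in Tumor-macrophage, and these ranges overlapped. The 16 heat shock genes made up 0.3701% to 0.394% in Ctrl-AM, 0.2962% to 0.3261% in Tumor-AM and 0.3412% to 0.3479% in Tumor-macrophage, without overlap, and most of each sum was Hspa8.

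Markers of other cells and of early activation moved beside these genes. The plasma cell markers Jchain, Mzb1 and Sdc1 summed to 1.05 to 4.25 FPKM for Ctrl-AM, 1.47 to 6.58 for Tumor-AM and 17.8 to 53.2 for Tumor-macrophage, and Jchain was at 0 in Ctrl-AM 3 and at 0.139 in Tumor-macrophage 2. The sum in Tumor-macrophage 2 was mostly Sdc1, at 16.4 FPKM. Only Sdc1 lay above all AM samples in every Tumor-macrophage sample, while Jchain and Mzb1 overlapped them. The B cell markers summed to 12.7 to 16.8, 3.15 to 7.49 and 31.5 to 58.2 FPKM in the same order. The T cell markers summed to 3.39 to 5.42, 4.69 to 11.01 and 10.6 to 19.7 FPKM, and the neutrophil markers to 107.6 to 127.8, 105.6 to 159.9 and 88.8 to 136.7. The neutrophil genes differed in direction. In Tumor-AM, S100a9 and Retnlg lay below Ctrl-AM, at 3.28 to 9.985 and 0.216 to 1.278 FPKM against 20.4 to 32.2 and 1.785 to 3.66. There S100a8 lay above Ctrl-AM and Csf3r overlapped it. In Tumor-macrophage, Csf3r lay above all AM samples, at 29.8 to 42.1 FPKM, S100a8 and S100a9 overlapped Ctrl-AM and Retnlg lay below it. Epithelial markers summed to 48.4 to 200.2, 27.9 to 79.1 and 18.0 to 71.9 FPKM, and endothelial markers to 4.66 to 5.78, 1.91 to 4.98 and 5.07 to 7.96. Of the endothelial genes in Tumor-macrophage, Pecam1 lay above all AM samples and Cldn5 below Ctrl-AM, while Cdh5 and Kdr overlapped Ctrl-AM. The fibroblast markers Col3a1, Dcn, Col1a1 and Col1a2 summed to 3.13 to 5.98, 7.74 to 48.7 and 6.00 to 9.18 FPKM. The sums of both tumor groups lay above Ctrl-AM through Col3a1 and Dcn. In Tumor-macrophage, Col1a1 and Col1a2 lay below Ctrl-AM, at no more than 0.214 and 0.081 FPKM against at least 0.308 and 0.396. In Tumor-AM both overlapped Ctrl-AM. Of the 2 tested, Col3a1 rose in Tumor-AM against Ctrl-AM by a log2 change of 1.99 (limma, adjusted p = 0.0272) while Dcn had 1.58 (adjusted p = 0.0666). The B cell sums and, through Sdc1, the plasma cell sums were thus highest in Tumor-macrophage, where the T cell sums overlapped Tumor-AM. The fibroblast sum was highest in Tumor-AM 3, and the epithelial sums overlapped between groups. The 21 immediate-early genes (Fos, Jun, Egr and related genes) summed to 2290 to 2697 FPKM for Ctrl-AM, 2837 to 3642 for Tumor-AM and 2961 to 4006 for Tumor-macrophage. Of the 20 tested, 7 rose and 0 fell in Tumor-AM against Ctrl-AM, 8 rose and 6 fell in Tumor-macrophage against Tumor-AM, and 11 rose and 3 fell in Tumor-macrophage against Ctrl-AM, beside the same background shares as above. The part of these cells and genes in the changes of the heat shock and ER stress genes was not tested.

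The same pathways hold many other genes, of which 6 further lists held 124 tested genes of 136, covering cytosolic chaperones, the CCT chaperonin, mitochondrial quality control, ER folding, translocation with degradation, and the integrated stress response. In Tumor-AM against Ctrl-AM, 9 rose and 3 fell, which is 9.68% against 10.3% of all genes. Bag2, an Hsp70 co-chaperone, rose most, from 0.709, 0.755 and 0.355 FPKM among Ctrl-AM samples to 1.45, 2.33 and 3.95 among those of Tumor-AM, and Slc7a11, a cystine transporter and ATF4 target, rose from 4.82, 4.16 and 3.09 to 8.51, 8.64 and 8.23 FPKM (limma, adjusted p = 0.0313 and 0.00265). Fkbp5, an Hsp90 co-chaperone induced by glucocorticoids, fell most, from 25.9, 24.8 and 37.6 to 13.0, 20.9 and 14.6 FPKM (adjusted p = 0.0262). In all 3 genes the groups did not overlap.

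In Tumor-macrophage against Tumor-AM, 21 of the 124 rose and 25 fell, 37.1% against 48.6% of all genes. Within the integrated stress response list the ATF4 targets differed in direction. Phgdh, the entry enzyme of serine synthesis, fell from 137, 116 and 124 FPKM to 4.05, 1.10 and 3.66 (log2 change −5.11 ± 0.268, limma, adjusted p = 9.17e-08). Psat1, the next enzyme of that pathway, rose from 4.53, 7.47 and 6.91 FPKM to 11.8, 20.2 and 9.76, and Mthfd2, a mitochondrial folate enzyme, from 8.40, 10.7 and 7.25 to 14.8, 22.5 and 18.2, each by 0.995 on the log2 scale (limma, adjusted p = 0.0057 and 0.00121). Hspa12a, a distant Hsp70 relative, fell from 6.18 to 7.53 FPKM to at most 0.0870 (adjusted p = 5e-08).

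**Figure D4:**
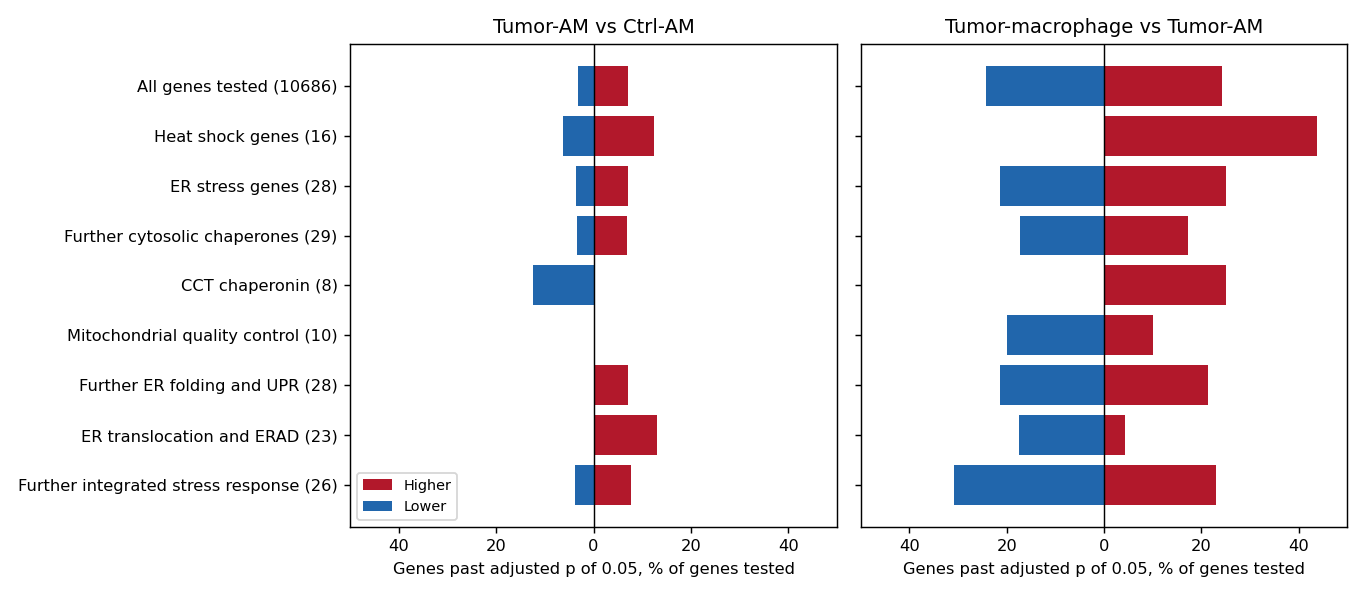
Percent of tested genes in each list that passed a limma adjusted p of 0.05, with higher genes to the right in red and lower genes to the left in blue, for Tumor-AM against Ctrl-AM and for Tumor-macrophage against Tumor-AM; the number of genes tested stands in parentheses. All genes tested, in the top row, show the background of 7.11% and 3.18% in the first and 24.2% and 24.4% in the second, and the heat shock genes have no lower bar in the second.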

How the data were processed

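Bulk RNA-seq of sorted lung macrophages was available for 9 samples in 3 groups of 3. Libraries were made with a SMART-Seq HT and Nextera workflow and read as single 75-base reads. The authors aligned reads to mm10 with TopHat2 2.1.1 and Bowtie2 and deposited FPKM per gene (Cuffdiff 2.2.1 in the submitters' processing notes); the annotation, use of strand and treatment of reads with several matches are not given in the sources used here. Genes at 1 FPKM or more in at least 3 of 9 samples were tested with limma 3.58.1 (R 4.3.3) on log2(FPKM + 1), with a mean-dependent prior variance, all 9 samples in 1 fit and Benjamini-Hochberg adjustment over 10686 genes. A fold change on this scale understates the change of low genes. The threshold was an adjusted p of 0.05, and ± is the SE of a log2 change or, where stated, the SD. The fit was tested on simulated data. Alternatives numbered 19, of which 9 left out 1 sample each. Depth was estimated from the smallest steps of FPKM.

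Any of the 45 members could be named. Values in every sample were given for members past the threshold in Tumor-AM against Ctrl-AM, for those with a called log2 change of at least 1 in Tumor-macrophage and for the defining genes, and of the further genes the 5 largest changes each way could be named. Values in every sample of other members were added after they had been seen. Members and lists were chosen with earlier results of these data known. Tables and drawings used Python 3.11.15, numpy 2.4.6, pandas 2.3.3, scipy 1.17.1 and matplotlib 3.10.9.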

Additional observations from a re-analysis of the deposited data

How the results depend on the processing

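Requiring a 2-fold change left 0 heat shock and 0 ER stress genes in Tumor-AM against Ctrl-AM, 3 and 2 in Tumor-macrophage against Tumor-AM, and 3 and 3 in Tumor-macrophage against Ctrl-AM. Leaving out 1 sample gave 0 to 3 heat shock genes in Tumor-AM against Ctrl-AM, with 0 without any of the Ctrl-AM samples or Tumor-AM 1, 1 without Tumor-AM 2 and 2 without Tumor-AM 3. Single-gene changes were compared across alternatives only for members called in a comparison and for some others chosen to be printed. Most uncalled results were left out, and these may have turned as well. Among those compared, directions turned for Atf4 in Tumor-AM against Ctrl-AM under TPM (−0.0193). They also turned for Hspa8 in Tumor-macrophage against Tumor-AM after quantile normalization (−0.0622). Under TPM in Tumor-macrophage against Ctrl-AM they turned for Hsp90aa1 (−0.0458), Dnajb1 (−0.0205) and Calr (−0.00379). The TPM reversals follow from the FPKM sums, which rise from group to group, and the cause of the other was not tested. Over the single genes compared in this way and all alternatives, 1027 results kept direction and side of the threshold. Another 133 kept direction and lost the call, 10 gained it and 5 turned. Since uncalled members were mostly left out, the numbers that gained a call or turned do not describe the whole set.

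The labels do not say what a shared replicate number marks. Correlations of the deviations of same-numbered samples ran from −0.0615 to 0.159 over all groups. Between Tumor-AM and Tumor-macrophage they were 0.026, 0.0964 and 0.109, and there every sample correlated best with its own number. The largest value, 0.159, was between Ctrl-AM 2 and Tumor-AM 2, which came from different mice. These correlations therefore do not show whether a number marks a shared mouse. With the replicate block, 2 heat shock and 3 ER stress genes were called in Tumor-AM against Ctrl-AM, 8 and 14 in Tumor-macrophage against Tumor-AM, and 5 and 16 in Tumor-macrophage against Ctrl-AM. The block ended the calls of Hsp90aa1 in Tumor-AM against Ctrl-AM (adjusted p = 0.0671) and of Hsp90aa1 and Dnajb1 in Tumor-macrophage against Ctrl-AM (adjusted p = 0.0656 and 0.0732). It added Hspb1 in Tumor-macrophage against Tumor-AM (adjusted p = 0.0361). In that comparison it also raised the ER stress genes called lower from 6 to 7. With a constant prior variance, 0 members were called lower in Tumor-AM against Ctrl-AM, since Hsp90aa1 and Xbp1 did not pass. FPKM of genes with near-identical copies stay uncertain.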
